A study of Mus musculus with 20 samples.

Results

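Uty, Kdm6a and Kdm6b encode the KDM6 family of histone demethylases, and they were chosen by name as 3 of the 23284 genes of the deposited table. All 3 passed the filter on low values, a log2 value of at least 5 in at least 4 libraries, which 13456 genes passed. KDM6 enzymes take methyl groups off lysine 27 of histone H3 (H3K27), a mark that Polycomb complexes write and read to keep genes silent. KDM6A, encoded on the X chromosome, sits in the KMT2C/D complex, which marks enhancers. UTY, its partner on the Y chromosome, is close to it in sequence but has much weaker catalytic activity. KDM6B is encoded on an autosome and is known for its induction by inflammatory and developmental signals.

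The libraries were poly-A RNA from tissue recombinants, grafts of mouse epithelial cells combined with rat urogenital sinus mesenchyme (UGM, Sprague Dawley), which can direct epithelium towards prostate. There were 4 libraries in each of 5 groups, all collected 3 months after implantation. The group SVE was seminal vesicle epithelium and PE was prostate epithelium, both labelled wild-type NKX3.1. The groups mNKX3.1, UTY_sh and mNKX3.1+UTY_sh were seminal vesicle epithelium carrying the construct labelled mNKX3.1, the hairpin labelled UTY_sh, or both. NKX3.1 is a homeodomain factor of prostate epithelium, and the series' title links it with UTY and the histone methyltransferase G9a in prostate differentiation. Every library carries the same strain label, hybrid 129/SvImJ and C57Bl/6J, while the protocol gives C57Bl/6J donors aged 2 months. The protocol, which is the same for all libraries, gives doxycycline in the drinking water for 3 months to induce NKX3.1, wild type or a point mutant, from an altered pTRIPZ vector. The labels do not explain the m of mNKX3.1, name a promoter other than the inducible vector, or tie each library to an animal of its own. The p-values therefore measure the spread between these libraries, which may be technical. The labels give no replicate numbers, so libraries are numbered in accession order only.

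Read depth, estimated from the spacing of the values, was about 14900000 to 29800000 per library, lowest in PE (14900000 to 20800000) and highest in mNKX3.1+UTY_sh (24000000 to 29800000). The labelled epithelia matched their markers: all 7 prostate secretory genes were higher and all 7 seminal vesicle secretory genes lower in PE than in SVE. The median log2 differences of these lists were 7.57 and -10.26. Of all genes tested, 31.8% were called higher and 30.4% lower in PE. Fewer cells of a type and less RNA per cell cannot be told apart in these bulk samples, and neither can mouse reads and any rat reads counted on mouse genes. Outside PE and mNKX3.1, 3 libraries chosen after their values were seen held more than 10% of the mean PE level of the prostate secretory gene Pbsn: SVE 1 (23.3%), UTY_sh 3 (12.5%) and mNKX3.1+UTY_sh 4 (14.9%). Where leaving out these 3 libraries changed a call, the value without them is given.

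The RefSeq promoters of Uty, of Kdm6a and of Ddx3y, the next tested gene on one side of Uty, are shown because Uty and Ddx3y moved together while Kdm6a did not. The windows of Eif2s3y, the next tested gene on the other side, and of Kdm5d were not compared. Eif2s3y differed by -0.08 in PE against SVE and was not called. Whether letters shared by Uty and Ddx3y go with their levels was not tested. Each window runs from 250 bases before to 50 bases after the start of transcription (GRCm38.p6), and capitals mark 3 motifs searched on both strands: TAAGTA (the NKX3.1 core), TGACG (the core of a cAMP response element, CRE) and CACGTG (an E-box). No match overlapped another.

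Uty, chrY:1245710-1246009, minus strand: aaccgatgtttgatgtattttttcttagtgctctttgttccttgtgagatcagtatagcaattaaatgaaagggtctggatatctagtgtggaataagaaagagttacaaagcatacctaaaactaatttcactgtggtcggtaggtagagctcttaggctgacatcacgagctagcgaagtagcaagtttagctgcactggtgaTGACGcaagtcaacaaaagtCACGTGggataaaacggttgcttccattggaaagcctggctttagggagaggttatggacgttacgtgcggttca
Kdm6a, chrX:18162325-18162624, plus strand: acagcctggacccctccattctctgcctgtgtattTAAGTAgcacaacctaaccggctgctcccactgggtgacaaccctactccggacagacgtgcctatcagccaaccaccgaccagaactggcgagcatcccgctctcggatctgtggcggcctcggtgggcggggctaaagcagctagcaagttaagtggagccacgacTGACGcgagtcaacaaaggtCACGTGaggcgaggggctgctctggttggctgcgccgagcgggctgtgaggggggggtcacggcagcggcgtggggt
Ddx3y, chrY:1286564-1286863, minus strand: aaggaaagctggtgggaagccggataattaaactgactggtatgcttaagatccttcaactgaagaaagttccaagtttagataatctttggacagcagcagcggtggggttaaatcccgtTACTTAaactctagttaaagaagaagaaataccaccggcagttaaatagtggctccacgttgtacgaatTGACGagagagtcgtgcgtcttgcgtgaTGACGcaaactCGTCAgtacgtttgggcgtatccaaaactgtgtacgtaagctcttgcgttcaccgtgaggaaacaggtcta

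Uty and Kdm6a shared one stretch of these windows. A local alignment matched 47 of 62 columns (75.8%, with 10 gap positions), and both stretches end on the E-box, which starts at -25 in Uty and at -27 in Kdm6a. The CRE core starts at -45 and -47. In the aligned stretches below, capitals mark the bases that are identical in both.

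Uty: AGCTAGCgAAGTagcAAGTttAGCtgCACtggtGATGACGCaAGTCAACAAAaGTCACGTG
Kdm6a: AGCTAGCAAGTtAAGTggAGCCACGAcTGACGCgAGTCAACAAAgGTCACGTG

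Uty and Ddx3y shared 12 of 12 bases, GTGATGACGCAA, around one CRE core. TAAGTA was not found in the Uty window and was found once each in those of Kdm6a (at -215) and Ddx3y (at -129, opposite strand). It occurs in 7.59% of 32851 promoter windows of the same length, TGACG in 20.8% and CACGTG in 7.15%, so a match is a description of the letters and not of binding.

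The first question was whether the hairpin labelled UTY_sh lowered Uty. Uty did not pass the test in UTY_sh against SVE. The deposited log2 values of Uty in libraries 1 to 4 were 9.55, 9.27, 9.04 and 9.29 in SVE, and 9.16, 9.22, 9.52 and 8.98 in UTY_sh. The groups overlapped, and UTY_sh 3 lay above 3 of the 4 SVE libraries. The mean in UTY_sh was 9.22 ± 0.23 (SD, n = 4) against 9.29 ± 0.21 in SVE, a difference of -0.07 (SE 0.11), which is 95.3% of the SVE level with a 95% interval of 81.2% to 112% (limma, adjusted p = 0.999). Without the 3 Pbsn-rich libraries it was -0.08. In this comparison 0% of the genes tested were called by limma, and 316 genes (2.35%) had an unadjusted p under 0.05.

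In the presence of the construct, the hairpin libraries stood apart. Uty was 10.31, 10.29, 10.07 and 10.27 in mNKX3.1, and 9.12, 9.12, 9.09 and 9.29 in mNKX3.1+UTY_sh, so every library with both lay below every library with the construct alone. The difference was -1.08 (SE 0.11), or 47.3% of the mNKX3.1 level (interval 40.3% to 55.5%, limma adjusted p = 1.37e-07). Of the genes tested, 63.8% were called in this comparison (31.4% higher, 32.4% lower) and 61.9% did not overlap between the groups. Against SVE, however, Uty in mNKX3.1+UTY_sh (9.15 ± 0.09) differed by -0.14 (91%, interval 77.5% to 107%, limma adjusted p = 1), and 0% of genes were called there, with 557 (4.14%) at an unadjusted p under 0.05. With both constructs, Uty did not differ from unmodified seminal vesicle grafts beyond the spread of the libraries.

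The hairpin's difference among construct-bearing grafts, less its difference among grafts without the construct, was -1.01 for Uty (SE 0.16, limma adjusted p = 4.09e-05) and 0.65 for Kdm6b (SE 0.11, limma adjusted p = 9.76e-05). For Kdm6a it was -0.12 and did not pass (limma adjusted p = 0.354). This term was called for 48.1% of the genes tested. The prostate secretory genes moved with it, all 7 being called lower for this term, beside 24% of all genes. The summed log2 level of a list is the log2 of the sum of its antilogs, so its highest genes weigh most. For the prostate secretory genes it was 20.07 to 20.32 in mNKX3.1, 8.92 to 17.33 in mNKX3.1+UTY_sh, 9.47 to 17.91 in SVE and 12.24 to 16.93 in UTY_sh. Smooth muscle genes moved as well: all 6 were higher in mNKX3.1+UTY_sh than in mNKX3.1 (summed log2 level 16.79 to 17.14, against 15.58 to 15.8). In that comparison 63.8% of all genes were called, 31.4% higher and 32.4% lower. The part of either list in the Uty and Kdm6b results was not tested.

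**Figure D1:**
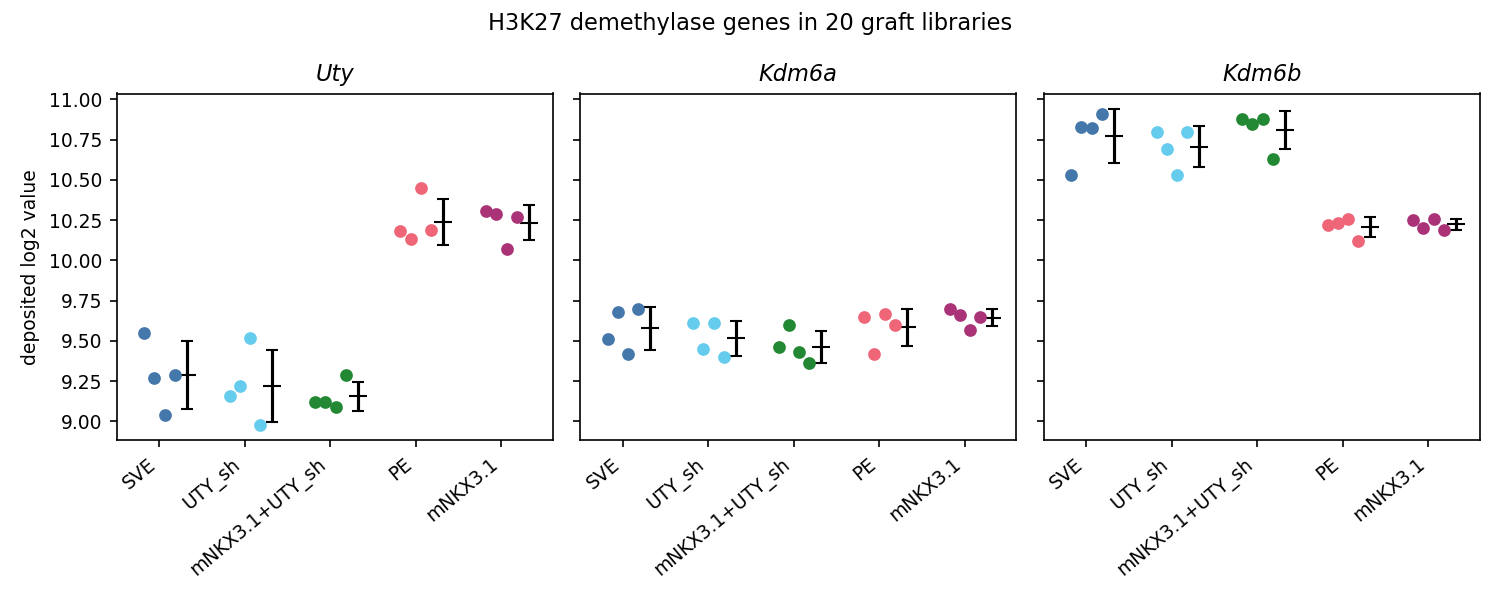
Deposited log2 values (y axis) of Uty, Kdm6a and Kdm6b in the 5 groups (x axis), 1 point per library, with the mean and SD of each group beside the points. For Uty, PE and mNKX3.1 lie at 10.07 to 10.45 and the other 3 groups at 8.98 to 9.55, while Kdm6b has the reverse order and Kdm6a stays between 9.36 and 9.70.

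Uty was higher in prostate grafts than in seminal vesicle grafts. Its log2 values in PE were 10.18, 10.13, 10.45 and 10.19 (10.24 ± 0.14, SD, n = 4), all above the highest SVE value of 9.55. The difference was 0.95 (SE 0.11), a ratio of 1.93 (95% interval 1.64 to 2.26, limma adjusted p = 7.27e-07). Seminal vesicle epithelium with the construct reached the same level, 10.23 ± 0.11, a ratio of 1.92 to SVE (interval 1.64 to 2.26, limma adjusted p = 7.46e-07). These comparisons share the SVE libraries. In PE against SVE 62.1% of genes were called (31.8% higher, 30.4% lower) and 48.9% did not overlap. In mNKX3.1 against SVE 62.3% were called (31.7% higher, 30.6% lower) and 54.9% did not overlap. Separation between these groups was thus common across the transcriptome. Between mNKX3.1 and PE the ratio of Uty was 0.998 (interval 0.85 to 1.17). No gene was called there (0%), and 65 (0.483%) had an unadjusted p under 0.05. As in the other pairs with no call, that share is smaller than chance would give at this threshold. The 0% therefore does not show equality, and limma with array weights called 850.

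The order of Uty levels was PE, mNKX3.1, SVE, UTY_sh and mNKX3.1+UTY_sh, with means of 10.24, 10.23, 9.29, 9.22 and 9.15. Only the step from mNKX3.1 to SVE exceeded the spread of the libraries. The 3 comparisons not yet given follow that split, with Uty in UTY_sh at 49.5% of PE and 49.5% of mNKX3.1, and in mNKX3.1+UTY_sh at 47.2% of PE (limma adjusted p = 3.03e-07, 3.12e-07 and 1.31e-07). The genes called were 62.6%, 62.9% and 63.1%. Uty in UTY_sh and mNKX3.1+UTY_sh differed by -0.07, where 0% of genes were called and 217 (1.61%) had an unadjusted p under 0.05.

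Kdm6a, the X-linked partner, was nearly level across the groups. Its log2 values were 9.51, 9.68, 9.42 and 9.70 in SVE, 9.65, 9.42, 9.67 and 9.60 in PE, and 9.70, 9.66, 9.57 and 9.65 in mNKX3.1. They were 9.61, 9.45, 9.61 and 9.40 in UTY_sh, and 9.46, 9.60, 9.43 and 9.36 in mNKX3.1+UTY_sh. All groups overlapped each other. Against SVE, the ratio was 1.01 in PE (interval 0.904 to 1.12), 1.05 in mNKX3.1 (0.941 to 1.17), 0.959 in UTY_sh (0.861 to 1.07) and 0.925 in mNKX3.1+UTY_sh (0.829 to 1.03). None of these passed the test, and the intervals do not show equality. In 1 of the 10 pairs of groups Kdm6a was called, mNKX3.1+UTY_sh below mNKX3.1 by -0.18 (88.1%, interval 79.1% to 98.2%, limma adjusted p = 0.0404). That call was lost without mNKX3.1 library 1, 2 or 4 or without mNKX3.1+UTY_sh library 1, 3 or 4, with differences of -0.18 to -0.15 and adjusted p up to 0.119. Without PE library 2, Kdm6a was also called in mNKX3.1+UTY_sh against PE (-0.18, limma adjusted p = 0.0483), where it was -0.12 with all libraries.

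Kdm6b ran opposite to Uty. Its log2 values were 10.53, 10.83, 10.82 and 10.91 in SVE (10.77 ± 0.17), 10.22, 10.23, 10.26 and 10.12 in PE (10.21 ± 0.06), and 10.25, 10.20, 10.26 and 10.19 in mNKX3.1 (10.23 ± 0.03). In UTY_sh they were 10.80, 10.69, 10.53 and 10.80 (10.71 ± 0.13), and in mNKX3.1+UTY_sh 10.88, 10.85, 10.88 and 10.63 (10.81 ± 0.12). No PE or mNKX3.1 library reached the lowest value of the other 3 groups. Kdm6b in PE was 67.5% of SVE (interval 60.3% to 75.6%, difference -0.57, SE 0.08, limma adjusted p = 4.77e-06), and in mNKX3.1 it was 68.5% (61.2% to 76.6%, limma adjusted p = 7.31e-06). It was 1.5 times higher with both constructs than with mNKX3.1 alone (interval 1.34 to 1.67, limma adjusted p = 3.42e-06). The hairpin alone left it at 95.3% of SVE (interval 85.2% to 107%) and both constructs at 102% (91.5% to 115%), neither of which passed.

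**Figure D2:**
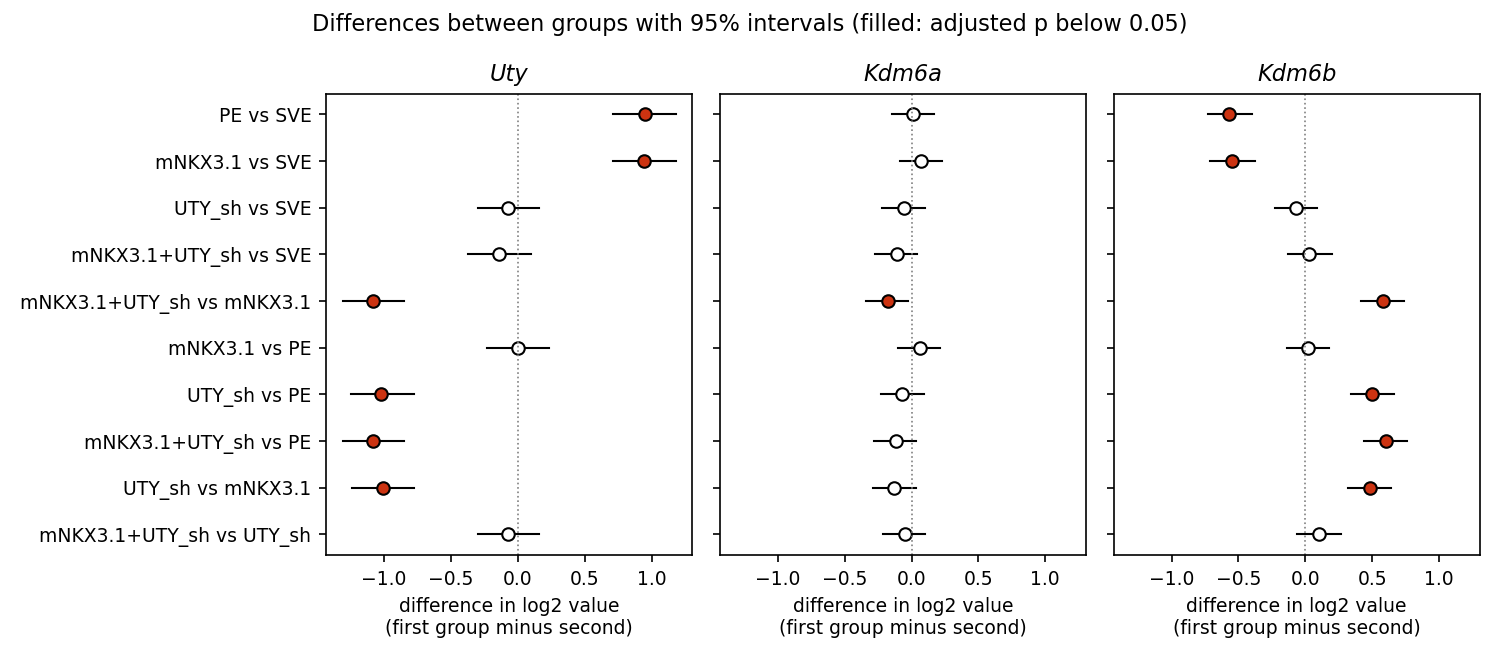
Differences in log2 value (x axis, first group minus second) for the 10 pairs of groups (y axis), with 95% intervals from limma and filled points where the adjusted p was below 0.05. The pairs share groups. Uty and Kdm6b are called in the same 6 pairs, with opposite signs, and Kdm6a in 1, and the sign of Kdm6b holds relative to the median of all genes and turns when libraries are scaled to equal totals.

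The direction for Kdm6b depends on what the libraries are scaled to. The deposited values hold the median of all tested genes level (0.02 in PE against SVE). Seminal vesicle secretory genes weigh heavily on the total of a library in SVE (summed log2 level 23.27 to 24.05, against 14.9 to 17.66 in PE). Scaling each library to the same total moved the median of all tested genes to 0.79 in PE against SVE, 0.80 in mNKX3.1 against SVE and -0.79 in mNKX3.1+UTY_sh against mNKX3.1. On that scale 10519 genes were higher and 879 lower in PE, where the deposited scale gave 4275 and 4087. Kdm6b then differed by 0.21, 0.23 and -0.20 in these comparisons, which is -0.58, -0.57 and 0.59 relative to the shifted median. Uty rose on both scales, by 1.72 in PE against SVE on the equal-total scale, or 0.93 relative to the median. Kdm6a followed the median, at 0.78 or -0.01 relative to it. All directions in the following paragraphs are relative to the median of all genes.

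A shift of all log2 values of a library cancels in differences taken within it. All Uty and Kdm6a values and part of those of Kdm6b lay below the range that kept the spacing of reads. A scaling made before that change need not cancel in these differences. Uty minus Kdm6a was 0.05, -0.41, -0.38 and -0.41 in the SVE libraries and 0.52, 0.71, 0.77 and 0.60 in the PE libraries. The mean shifted by 0.936, from -0.286 ± 0.223 to 0.65 ± 0.112 (SD, n = 4). Kdm6b minus Kdm6a fell by 0.577, from 1.2 ± 0.156 to 0.621 ± 0.128. In both measures the groups did not overlap, nor did they in mNKX3.1 against SVE or in mNKX3.1+UTY_sh against mNKX3.1. Each of these gave p = 0.0286 in a two-sided exact permutation test, the smallest that 4 against 4 allows, and 0.0571 adjusted over the 18 tests made, so none passed. The hairpin alone moved Uty minus Kdm6a by -0.00916 (exact permutation p = 0.943, n = 4) and Kdm6b minus Kdm6a by -0.00905 (p = 0.943).

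Levels of different genes can be compared only per length. Per kilobase of all annotated exons, the mean log2 level in SVE was 7.98 ± 0.17 for Kdm6b, 6.51 ± 0.14 for Kdm6a and 6.00 ± 0.21 for Uty. In PE it was 7.41 ± 0.06, 6.52 ± 0.11 and 6.94 ± 0.14 in that order. Kdm6b was the highest of the family in seminal vesicle grafts, and Uty passed Kdm6a in prostate grafts. Those orders also held per kilobase of the longest transcript, where Uty in PE (7.86) lay above Kdm6b (7.47) as well, so the order of these 2 genes in PE depends on the length used. The exon lengths were 9.79, 8.38 and 6.95 kb for Uty, Kdm6a and Kdm6b, from an annotation of another build than the files. All Uty and Kdm6a values, but only part of those of Kdm6b, lay below the range that kept the spacing of reads. These orders are therefore orders of deposited values and need not be orders of reads.

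The 3 Pbsn-rich libraries bear on these values. Each of them, SVE 1, UTY_sh 3 and mNKX3.1+UTY_sh 4, held the highest Uty and the lowest Kdm6b of its group. These values lay between those of the rest of their own group and those of PE. Their part in the spread of Uty and Kdm6b was not tested. Leaving out all 3 gave Uty differences of 1.03 in PE against SVE and 1.03 in mNKX3.1 against SVE, and Kdm6b differences of -0.65 and -0.63. For Kdm6a the difference in PE against SVE was 0.01 with them and -0.01 without. The call of Kdm6a in mNKX3.1+UTY_sh against mNKX3.1 was lost without them (-0.15, limma adjusted p = 0.121). In that comparison Uty was then -1.13 and Kdm6b 0.64.

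**Figure D3:**
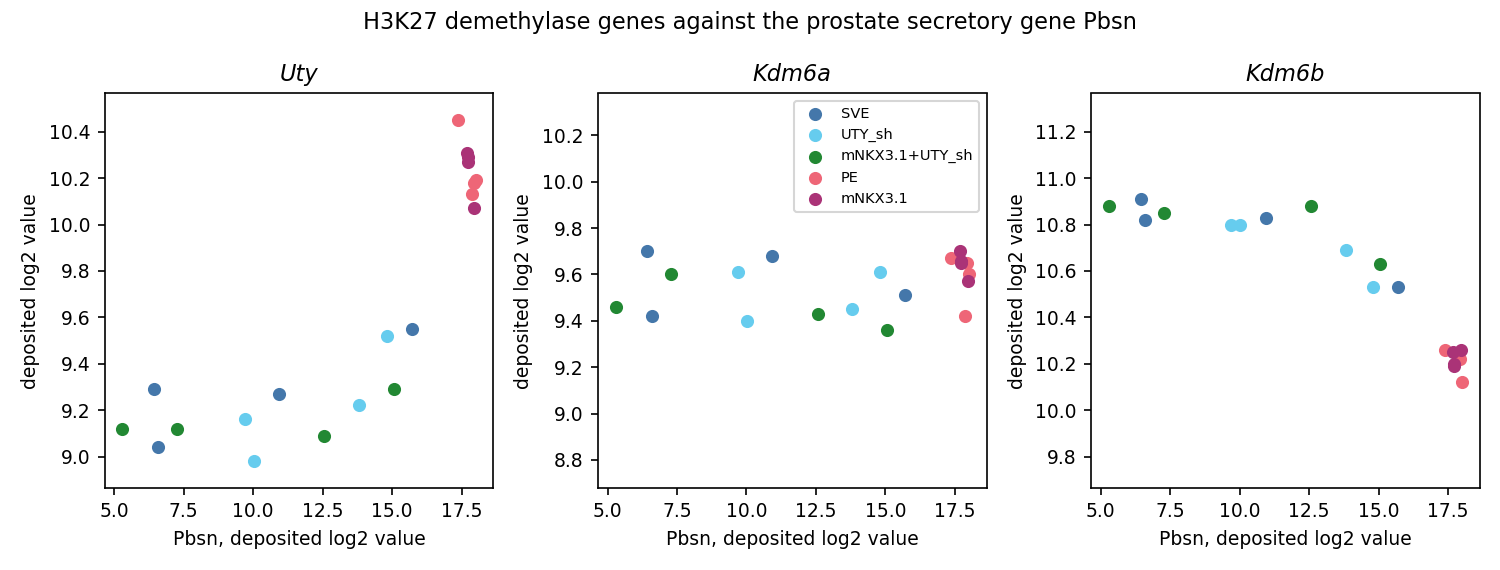
Deposited log2 values of the 3 genes (y axis, each panel spanning the same range of log2 units) against that of Pbsn, a prostate secretory gene (x axis), 1 point per library. The 3 libraries at Pbsn values of 14.81, 15.06 and 15.71 outside PE and mNKX3.1 have Uty at 9.52, 9.29 and 9.55 and Kdm6b at 10.53, 10.63 and 10.53.

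Y-linked genes did not move as a block. Of the 8 fixed beside Uty, 3 passed the filter (Ddx3y, Kdm5d and Eif2s3y), and the other 5 did not. Ddx3y, an RNA helicase gene, moved with Uty: its log2 values were 10.89, 10.59, 10.23 and 10.49 in SVE and 11.35, 11.12, 11.45 and 11.32 in PE, with no overlap. Its ratio was 1.7 in PE against SVE (interval 1.42 to 2.04, limma adjusted p = 3.39e-05) and 1.72 in mNKX3.1 against SVE (limma adjusted p = 2.56e-05). With both constructs Ddx3y was 51.5% of mNKX3.1 (limma adjusted p = 2.51e-06), and with the hairpin alone 94.7% of SVE, which did not pass. The hairpin's named target and this neighbour thus had similar ratios in these comparisons.

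Eif2s3y, a translation initiation factor gene, was 9.99, 10.22, 10.09 and 10.25 in SVE and 9.89, 10.03, 10.29 and 10.02 in PE, a difference of -0.08 that did not pass (limma adjusted p = 0.41). Kdm5d, a demethylase gene for H3K4, was 9.04, 9.21, 9.19 and 9.26 in SVE and 9.43, 9.12, 9.47 and 9.42 in PE. It was called at 0.19 (limma adjusted p = 0.0318), but the libraries overlapped and the call was lost without SVE 1 or without PE 1, 3 or 4 (differences of 0.14 to 0.17, adjusted p up to 0.108). It was also lost without the 3 Pbsn-rich libraries (0.14, limma adjusted p = 0.13), with no filter (0.055) and with only the groups compared in the fit (0.119). In mNKX3.1 against SVE its call at 0.17 (limma adjusted p = 0.0482) was lost without SVE 1, 2 or 3 or any of the 4 mNKX3.1 libraries (0.12 to 0.18, adjusted p up to 0.154). There it was also lost without the Pbsn-rich libraries (0.12, limma adjusted p = 0.18) and under 4 other settings (limma adjusted p = 0.0562 without the variance trend, 0.0621 with equal medians, 0.081 with no filter and 0.0908 with array weights). Uty minus the mean of these 3 genes shifted by 0.657 in PE against SVE, without overlap (exact permutation p = 0.0286, n = 4, adjusted 0.0571). Against Ddx3y alone the shift was 0.18. Xist, the X-inactivation RNA, stood at log2 values of 3.17 to 4.74 in all 20 libraries, near the floor of the table.

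**Figure D4:**
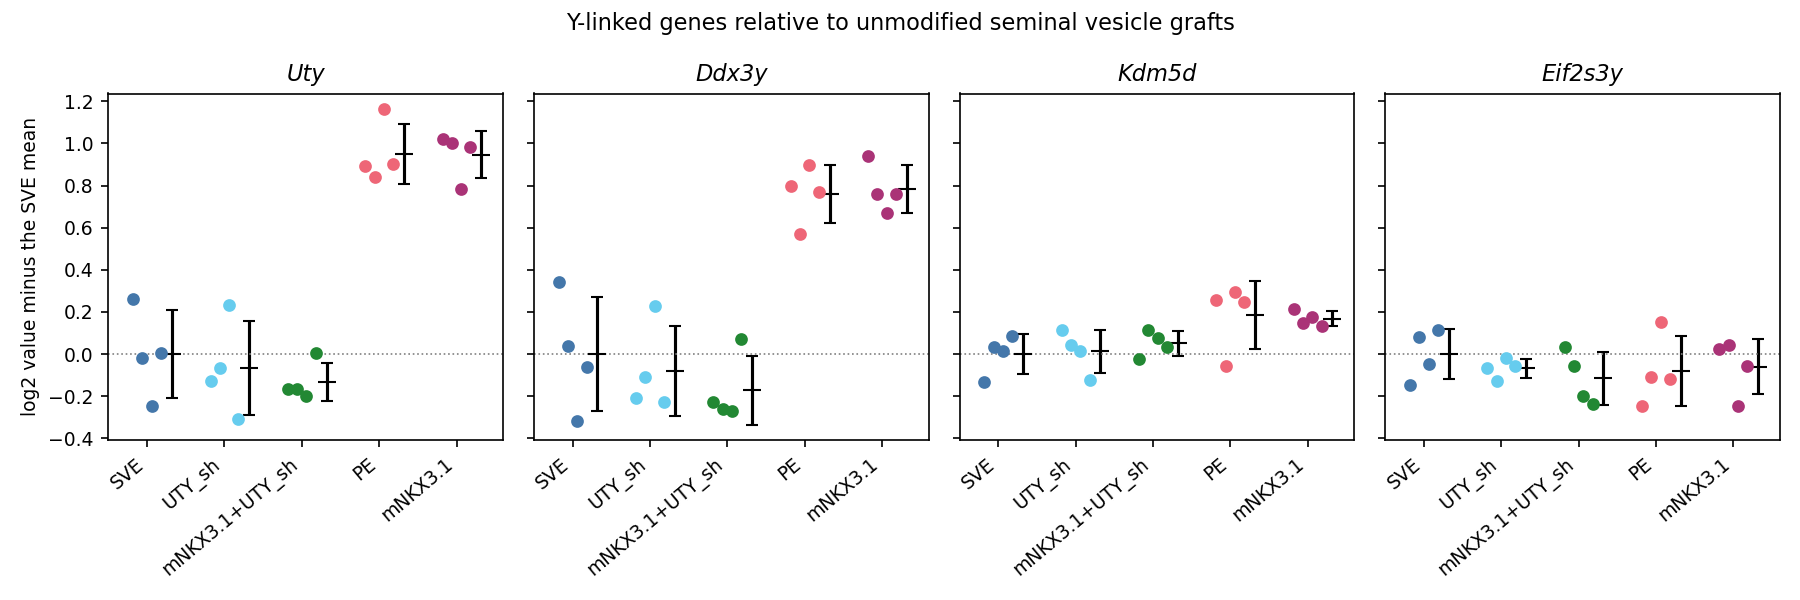
Log2 value minus the SVE mean (y axis) of Uty and 3 other Y-linked genes in the 5 groups (x axis), 1 point per library with mean and SD. Uty and Ddx3y sit higher in PE and mNKX3.1 than in the other groups, Kdm5d differs by 0.19 or less from SVE and Eif2s3y by 0.11 or less in group means.

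The X-linked partners of the Y-linked genes differed in direction. Of 6 tested in PE against SVE, 2 were higher and 2 lower, with a median difference of 0.01 beside 0.02 for all genes, of which 62.1% were called. Zfx, a zinc finger factor gene, was 67.2% of SVE in PE and rose by 0.40 with both constructs against mNKX3.1 (limma adjusted p = 1.04e-07 and 8.68e-06). Kdm5c, the partner of Kdm5d, was 1.17 times higher in PE (interval 1.08 to 1.26, limma adjusted p = 0.000984). Neither was called with the hairpin alone, at 96.6% and 98.5% of SVE.

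Among tested genes beside the members on their chromosomes, Uty had 3 (Eif2s3y and Kdm5d on one side, Ddx3y on the other). Of 6 beside Kdm6a, 4 were higher and 1 lower in PE than in SVE, between -0.50 and 0.98, where 62.1% of all genes were called. Of 6 beside Kdm6b, 1 was higher, 1 lower and 4 not called, between -0.62 and 0.30. Order was taken from RefSeq by gene name.

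The KMT2C/D complex, in which KDM6A resides, had 1 gene higher and 5 lower of 9 tested in PE against SVE (median -0.14). In mNKX3.1+UTY_sh against mNKX3.1 it had 3 higher and 2 lower, beside 63.8% called among all genes. Ncoa6, a coactivator subunit, was 74.8% of SVE in PE (limma adjusted p = 2.64e-05), and Kmt2d, the methyltransferase, listed as Mll2, was 75.3% (limma adjusted p = 0.000379). Of 11 genes of PRC2, the complex that writes H3K27 methylation, 4 were higher and 3 lower (median -0.04). Rbbp4, a histone-binding subunit, was 1.21 times higher and Jarid2, a recruiting subunit, 1.34 times. Of 18 PRC1 genes, whose proteins read the mark, 3 were higher and 5 lower (median -0.02). Cbx7, a chromodomain reader, was 63.7% of SVE, and Phc1, a scaffold subunit, 53.1% (limma adjusted p = 7.46e-08 and 8.64e-08). With equal totals Phc1 differed by -0.14 and was not called (limma adjusted p = 0.188). Across these lists called and uncalled genes lay on both sides, beside 62.1% called among all genes.

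Acetylation of the same lysine excludes its methylation. Of 8 genes for its writers, erasers and readers, 2 were higher and 4 lower in PE (median -0.16), with the acetyltransferase gene Crebbp at 69.5% of SVE and the deacetylase gene Hdac2 1.29 times higher (limma adjusted p = 3.03e-06 and 3.82e-05). Of 23 other lysine demethylase genes tested, 6 were higher and 7 lower (median -0.03). Of all genes, 31.8% were higher and 30.4% lower, and the demethylase counts lie near those shares. Kdm5b, which acts on H3K4, fell by 1.15 to 45% of SVE, and Kdm2a, which acts on H3K36, was 79.9% (limma adjusted p = 1.18e-07 and 7.97e-06). Kdm5b rose by 1.08 in mNKX3.1+UTY_sh against mNKX3.1 and was 93% of SVE with the hairpin alone, which did not pass.

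KDM6 enzymes need 2-oxoglutarate and are inhibited by succinate and fumarate. Of 13 genes that make or remove these metabolites, 11 were higher in PE than in SVE and 1 lower (median 0.34, beside 31.8% higher among all genes). In mNKX3.1+UTY_sh against mNKX3.1, 9 were lower and 1 higher (median -0.19, beside 32.4% lower and 31.4% higher among all genes). Fh1, which removes fumarate, was 1.57 times higher in PE and Sdhc, a subunit of the enzyme that removes succinate, 1.37 times (limma adjusted p = 8.80e-08 and 1.54e-06). NF-kB signalling is known to induce Kdm6b in macrophages. Of 10 NF-kB targets tested, 3 were higher and 2 lower in PE, below the 62.1% called among all genes. Birc3, an inhibitor of apoptosis, was 3.46 times higher and Nfkbia, the inhibitor of NF-kB, 62.8% of SVE (limma adjusted p = 1.67e-12 and 0.00124). Of 12 immediate early genes tested, 2 were higher and 1 lower, also a smaller share than among all genes.

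**Figure D5:**
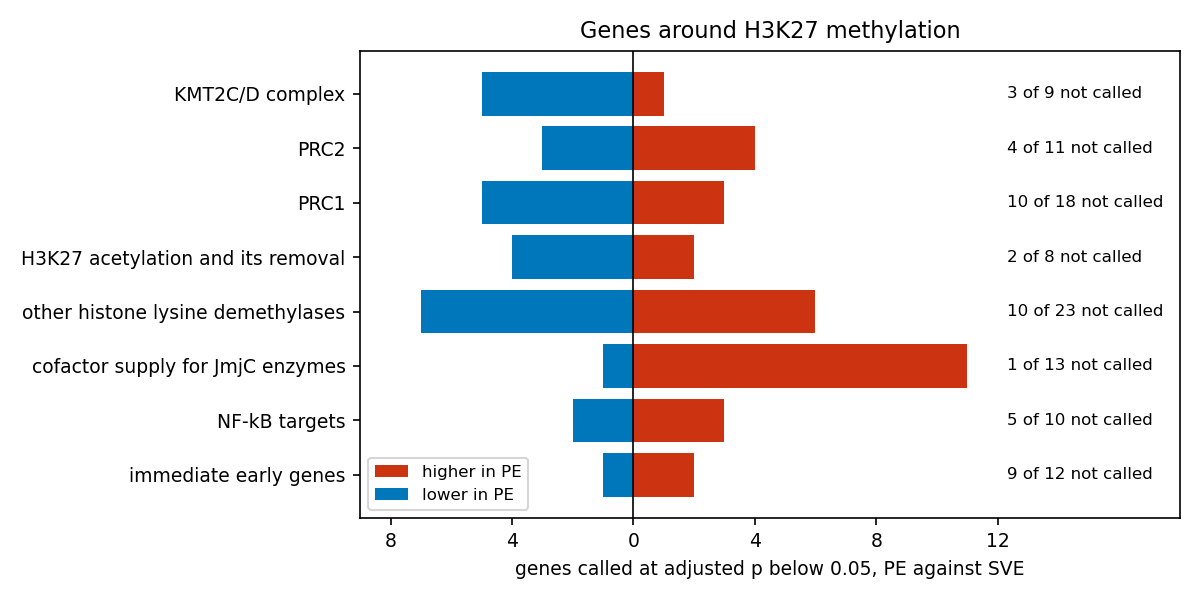
Numbers of genes called higher (red, right) or lower (blue, left) in PE than in SVE on the deposited scale (x axis) in 8 lists around H3K27 methylation (y axis), with the number not called at the right. The genes called higher run from 1 of 9 (KMT2C/D complex) to 11 of 13 (cofactor supply), beside 31.8% higher and 30.4% lower among all genes.

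Markers of the cell types in the grafts were also among the genes called between PE and SVE. Of all genes, 62.1% were called there (31.8% higher, 30.4% lower). The 6 smooth muscle genes were all lower in PE (summed log2 level 15.52 to 15.98, against 16.51 to 17.21). Of 6 epithelial genes, 5 were higher and 1, Cldn3, was lower (14.83 to 14.96, against 14.16 to 14.5). Fibroblast genes were lower for 3 of 7 (13.79 to 13.98, against 13.93 to 14.43), endothelial genes for 2 of 5 (10.09 to 10.86, against 10.76 to 11.08), and 1 of 5 tested leukocyte genes was higher (10.72 to 13.37, against 11.02 to 11.36). In mNKX3.1+UTY_sh against mNKX3.1, besides the smooth muscle genes, 3 of 7 fibroblast genes (Col1a1, Col1a2 and Col3a1) were higher (13.99 to 14.17, against 13.81 to 13.95), as were 2 of 5 endothelial genes (10.81 to 11.03, against 10.34 to 10.7). Of 6 epithelial genes, Cldn3 was higher and Cdh1, Cldn4 and Epcam lower (14.43 to 14.52, against 14.83 to 14.95), and 2 of 5 tested leukocyte genes were lower (11.05 to 11.18, against 10.86 to 12.78). Of all genes, 63.8% were called in that comparison (31.4% higher, 32.4% lower). In both comparisons the shares of fibroblast, endothelial and leukocyte genes called in either direction lay below those of all genes. The part of these marker genes in the differences of Uty and Kdm6b was not tested.

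The genes most like each member were found by Pearson correlation of log2 values over 20 libraries, which share their groups, so most of each value reflects the split between groups. For Uty they were Fpgt (0.99), Tmem183a, Gpd2, Tmem59 and Cmpk1. For Kdm6b they were Hps4 (0.986), Smarcc2, Igsf9, C77080 and Parp3, and for Kdm6a Lats1 (0.876), Gtf2b, Arcn1, Pik3ca and Pak2. With each group's mean taken off, the leading genes were Gpd2 (0.914), Arglu1 and Ddx3y (0.912) for Uty, Smarcc2 (0.927) and Mamstr for Kdm6b, and Ak3 (0.977) and Slc35f5 for Kdm6a. The Pearson correlation with Pbsn was then 0.582 for Uty, -0.795 for Kdm6b and -0.224 for Kdm6a. The part of the Pbsn-rich libraries in these correlations was not tested. Of the 5 leading genes by rank correlation, 1 was shared for Uty, 1 for Kdm6b and 0 for Kdm6a over all libraries, and 1, 0 and 3 with group means taken off, so these names depend on the measure.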

How the data were processed

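Poly-A RNA of 20 libraries was analysed from 1 deposited table. The submitters' processing notes list TopHat2 2.0.4, Cufflinks 2.0.2, DESeq and bcl2fastq 1.8.4 and the build mm9. For the counter, the annotation and what was done with rat reads, nothing is stated in those notes or the labels. The authors deposited log2 values. Between 11 and 13 their antilogs were whole multiples of a unit in each library for 100% of values (whole within 0.1), which gave the depth. That spacing ended at 10.68 to 10.70 in every library: between 9 and 10.5 only 18.1% to 21.3% were whole. All Uty and Kdm6a values and 11 of 20 Kdm6b values lay below it, so their ratios are ratios of deposited values and need not equal ratios of reads, and no count test was run. For Kdm6b these were all PE and mNKX3.1 libraries, SVE 1, UTY_sh 3 and mNKX3.1+UTY_sh 4. The called differences of Kdm6b thus set values below that point mostly against values above it. Low genes sat at a floor (median 2.27 for 5801 genes with a mean below 2.5).

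1 linear model was fitted to the 13456 genes and all 20 libraries with limma 3.58.1 (R 4.3.3; a mean per group, variance trend, Benjamini-Hochberg within a comparison, called at adjusted p below 0.05; intervals at 95%), after tests on simulated data. No pseudocount was added. Within-library differences were tested by exact permutation (SciPy 1.17.1), and promoters aligned with Biopython 1.88. The alternatives were other normalizations, filters, variance models and weights, leaving out each library, and, chosen after seeing the data, leaving out 3 Pbsn-rich libraries and other Y-linked references. The members, the lists and the tests were chosen with earlier results of these data known. Named are the 3 members, Y-linked genes and X-linked partners, the called list members with the smallest p (at most 4, here 2) in PE against SVE, the 5 most correlated genes and up to 3 tested neighbours a side. Older symbols of the table were matched by synonym. The Kdm6b promoter and the hairpin sequence were not used here.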

Additional observations from a re-analysis of the deposited data

Results flagged for a closer look

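In 8 of 45 sets of 4 libraries tested (9 measures in 5 groups), 1 library stood apart from the others by more than Dixon's 95% critical value for 4, where chance alone flags about 5% of sets. Some measures are differences built from the values of others. The sets are therefore not independent, and no excess over that share can be read from the count. Uty was 10.07 in mNKX3.1 library 3, below the others at 10.27 to 10.31. In mNKX3.1+UTY_sh library 4, one of the Pbsn-rich libraries, Uty was 9.29 (others 9.09 to 9.12), Ddx3y was 10.62 (10.28 to 10.32) and Kdm6b was 10.63 (10.85 to 10.88). Kdm5d was 9.12 in PE library 2 (9.42 to 9.47). Uty minus Kdm6a was 0.05 in SVE library 1, also Pbsn-rich (others -0.41 to -0.38). In mNKX3.1 library 3, Uty minus Kdm6a was 0.50 (others 0.62 to 0.63) and Kdm6b minus Kdm6a was 0.69 (0.54 to 0.56).

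The hairpin difference depended on whether the construct was present, by -1.01 for Uty and 0.65 for Kdm6b on the log2 scale, both past the limma test of the interaction. That term was called for 48.1% of the genes tested, so it is not particular to these genes. With libraries scaled to equal totals it was -0.10 for Kdm6b and was not called (limma adjusted p = 0.35).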

How the results depend on the processing

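For Uty and Kdm6b, every call in the 6 pairs of groups that differed and in the interaction was kept under all alternatives except scaling to equal totals. Uty in PE against SVE ranged from 0.86 to 1.03 without any 1 library and from 0.92 to 1.03 under the other settings, and Kdm6b from -0.65 to -0.52 and from -0.66 to -0.57.

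Scaling to equal totals reversed Kdm6b relative to SVE in PE (0.21) and mNKX3.1 (0.23), and also in mNKX3.1+UTY_sh against mNKX3.1 (-0.20), UTY_sh against PE (-0.30), mNKX3.1+UTY_sh against PE (-0.17), UTY_sh against mNKX3.1 (-0.33) and the interaction (-0.10). By construction it shifts the median of all genes, by 0.79, 0.80, -0.79, -0.82, -0.79, -0.82 and -0.77 in the same order. Kdm6a was then called at 0.78, 0.85, -0.87 (UTY_sh against PE), -0.89 (mNKX3.1+UTY_sh against PE), -0.93 (UTY_sh against mNKX3.1) and -0.88 (interaction). Also reversed were Zfx (0.20, 0.27 and -0.38 in the first 3 comparisons), Eif2s3y (0.69 and 0.72 against SVE) and, in PE against SVE, Ncoa6 (0.35), Mll2 (0.36), Cbx7 (0.12), Crebbp (0.25), Kdm2a (0.45) and Nfkbia (0.10). Phc1 lost its call there (-0.14), and Eif2s3y (-0.83) and Kdm5d (-0.89) gained one in mNKX3.1+UTY_sh against mNKX3.1. Interaction calls rose from 6467 to 10335 genes (772 higher, 9563 lower).

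The call of Kdm6a in mNKX3.1+UTY_sh against mNKX3.1 was lost with equal medians (-0.18, adjusted p = 0.0528, limma), without a filter (-0.18, 0.0665) and without the Pbsn-rich libraries (-0.15, 0.121). The calls of Kdm5d were lost under several settings, given with its values. Array weights called Kdm6a in UTY_sh against mNKX3.1 (-0.14) and 850 genes in mNKX3.1 against PE, where the reported fit called 0. Values near 0 changed sign without a call: Uty in mNKX3.1 against PE (0.00 by quantile, median and total scaling, 0.07 with array weights), Kdm6a in PE against SVE (-0.02 with array weights, -0.01 without the Pbsn-rich libraries) and in mNKX3.1+UTY_sh against UTY_sh (0.01 without them), and Uty minus Ddx3y alone (0.01 and 0.04 for UTY_sh and mNKX3.1+UTY_sh against SVE) or minus Kdm5d alone (0.01 for mNKX3.1 against PE). Except where said, the cause was not tested.

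Leaving out 1 library, Kdm6a ranged from -0.04 to 0.07 in PE against SVE, from -0.23 to -0.15 in mNKX3.1+UTY_sh against mNKX3.1 and from -0.18 to -0.09 in mNKX3.1+UTY_sh against PE. Uty ranged from -0.17 to 0.02 in UTY_sh against SVE, from -0.04 to 0.07 in mNKX3.1 against PE and from -0.15 to 0.03 in mNKX3.1+UTY_sh against UTY_sh. Kdm6b ranged from -0.05 to 0.09 in mNKX3.1+UTY_sh against SVE and from -0.01 to 0.04 in mNKX3.1 against PE. Uty minus Kdm6a ranged from -0.08 to 0.10 (UTY_sh) and from -0.10 to 0.09 (both) against SVE, Kdm6b minus Kdm6a from -0.08 to 0.08 (UTY_sh against SVE) and from -0.07 to 0.02 (mNKX3.1 against PE), and Uty minus the other Y-linked genes from -0.08 to 0.06, -0.10 to 0.02 and -0.03 to 0.01 (UTY_sh and both relative to SVE, mNKX3.1 to PE). Eif2s3y ranged from -0.11 to 0.00 in mNKX3.1 against SVE. No paired analysis was possible because the labels give the libraries no replicate numbers.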
